A study of Mus musculus with 4 samples.

Results

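The interferon regulatory factors are a family of transcription factors that share an N-terminal DNA-binding domain and bind related GAAA-rich elements. The family was listed by gene symbol, and each gene was read from its brightest probe set that carries a single gene symbol. This gave 8 genes, Irf1, Irf2, Irf3, Irf4, Irf5, Irf7, Irf8 and Irf9, of 19938 named genes. The cells were mouse bone marrow-derived dendritic cells, grown for 10 days with 20 ng/mL GM-CSF, a cytokine that drives myeloid precursors towards dendritic cells, in medium with 10% serum. The 4 groups were NR4A3 siRNA with LPS, control siRNA with LPS, NR4A3 siRNA unstimulated and control siRNA unstimulated. NR4A3 is an orphan nuclear receptor, and LPS is the bacterial lipopolysaccharide sensed by TLR4. All cells, controls included, were electroporated with siRNA on that last day. Stimulated cells received 100 ng/mL LPS 24 hours later, and RNA was taken after a further 24 hours. The labels disagree on the mouse strain, which is BALB/c in the culture protocol but C57BL/6 in the description of each sample, and no label speaks of separate cultures.

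Family members divide the response to microbes between them. IRF3 and IRF7 are phosphorylated after pattern recognition and switch on type I interferon genes, while IRF9 is the DNA-binding subunit of ISGF3, the complex that answers secreted interferon. IRF1 activates interferon-responsive and antigen-presentation genes at sites that IRF2 can occupy and repress, and IRF5 works downstream of MyD88 at inflammatory cytokine genes. IRF4 and IRF8 are largely restricted to blood cells, bind DNA weakly alone and act with partners such as PU.1 and BATF. In the mouse, IRF8 is required for conventional type 1 and plasmacytoid dendritic cells, and IRF4 for functions of conventional type 2 dendritic cells.

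Each condition had 1 array, so the difference of any pair of arrays lacks a replicate and was not tested, and precision is limited by the number of arrays. Values are log2 expression, array medians lay between 6.37 and 6.42, and the median over all named genes and arrays, 6.66, served as the filter for dim genes. Nr4a3 itself stood at 9.39 with NR4A3 siRNA and 11.77 with control siRNA under LPS, and at 7.15 with NR4A3 siRNA and 11.21 with control siRNA unstimulated, so silenced cells kept Nr4a3 signal under LPS. Of the markers for the labelled cell type, Itgax lay between 12.38 and 12.89 and Cd74 between 13.38 and 13.47, whereas Flt3 was below the filter on all arrays. The macrophage marker Adgre1 lay between 11.08 and 13.07. Markers of B cells (6 measured), T cells (5) and NK cells (7) were all below the filter on every array, as were 7 of 10 neutrophil markers, 6 of 8 mast cell and basophil markers, and 3 of 8 measured plasmacytoid dendritic cell markers.

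The promoter windows of 5 members are shown because Irf7, Irf1, Irf8 and Irf4 spanned more than 1 log2 unit over the arrays, and Irf2 held the most motif matches. Each window runs 5′ to 3′ on the gene's strand, from 250 bases before to 50 bases after the RefSeq gene start (GRCm38.p6). Capitals mark matches to the motifs searched.
Irf7, chr7:141266375-141266674, minus strand: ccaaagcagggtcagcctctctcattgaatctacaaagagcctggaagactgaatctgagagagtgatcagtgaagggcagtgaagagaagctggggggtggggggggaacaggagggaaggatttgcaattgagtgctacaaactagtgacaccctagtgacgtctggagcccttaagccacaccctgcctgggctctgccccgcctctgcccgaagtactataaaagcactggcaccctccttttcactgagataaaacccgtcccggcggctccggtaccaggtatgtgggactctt
Irf1, first of its windows, chr11:53769764-53770063, plus strand: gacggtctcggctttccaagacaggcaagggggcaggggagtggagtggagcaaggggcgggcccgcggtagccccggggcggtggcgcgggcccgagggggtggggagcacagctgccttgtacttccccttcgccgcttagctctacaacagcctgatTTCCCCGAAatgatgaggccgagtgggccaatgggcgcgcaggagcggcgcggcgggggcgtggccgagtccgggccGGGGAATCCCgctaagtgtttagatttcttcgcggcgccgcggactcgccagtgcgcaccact
Irf8, first of its windows, chr8:120736108-120736407, plus strand: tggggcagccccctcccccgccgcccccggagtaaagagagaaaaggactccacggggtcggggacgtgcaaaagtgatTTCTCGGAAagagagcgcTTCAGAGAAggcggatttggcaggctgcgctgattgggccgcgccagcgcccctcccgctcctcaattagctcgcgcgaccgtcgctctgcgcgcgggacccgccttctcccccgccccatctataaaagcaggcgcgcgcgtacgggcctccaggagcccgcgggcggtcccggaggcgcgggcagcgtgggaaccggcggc
Irf4, chr13:30748983-30749282, plus strand: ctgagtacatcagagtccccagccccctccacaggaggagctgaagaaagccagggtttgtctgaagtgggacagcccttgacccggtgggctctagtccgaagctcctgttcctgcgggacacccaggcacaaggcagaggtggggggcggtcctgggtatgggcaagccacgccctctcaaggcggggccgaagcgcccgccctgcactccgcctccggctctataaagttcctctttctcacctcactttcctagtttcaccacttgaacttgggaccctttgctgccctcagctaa
Irf2, chr8:46739495-46739794, plus strand: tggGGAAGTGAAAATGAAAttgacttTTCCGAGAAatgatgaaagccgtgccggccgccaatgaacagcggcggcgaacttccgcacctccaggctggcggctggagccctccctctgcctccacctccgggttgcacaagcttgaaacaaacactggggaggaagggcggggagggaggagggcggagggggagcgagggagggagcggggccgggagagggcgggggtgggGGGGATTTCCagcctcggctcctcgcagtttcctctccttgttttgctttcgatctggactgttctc

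The motifs were searched on both strands, and a match describes letters in the window only. They were the core of the interferon-stimulated response element (GAAANNGAAA), the gamma-activated site bound by STAT dimers (TTCNNNGAA), the ETS-IRF composite element at which PU.1 and IRF4 or IRF8 bind together (GGAANNGAAA), the NR4A monomer site (AAAGGTCA) and the kappa B site of NF-kappa B. Among 32851 promoter windows of that length, they were found in 3.44%, 8.30%, 2.72%, 1.51% and 4.51%, in that order. Irf1 held a gamma-activated site at -90 to -82 from the gene start and a kappa B site at -13 to -4. Irf8 held gamma-activated sites at -171 to -163 and at -153 to -145. Irf2 held an ETS-IRF composite at -247 to -238 that overlaps an interferon-stimulated core at -241 to -232, followed by a gamma-activated site at -224 to -216 and a kappa B site at -17 to -8. The windows of Irf4 and Irf7 held no match to any of the 5 motifs, nor did those of Irf3 and Irf5. Of the 11 windows of the 8 genes, 1 held the NR4A site, in the second window of Irf9 at -135 to -128 on the opposite strand.

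**Figure D1:**
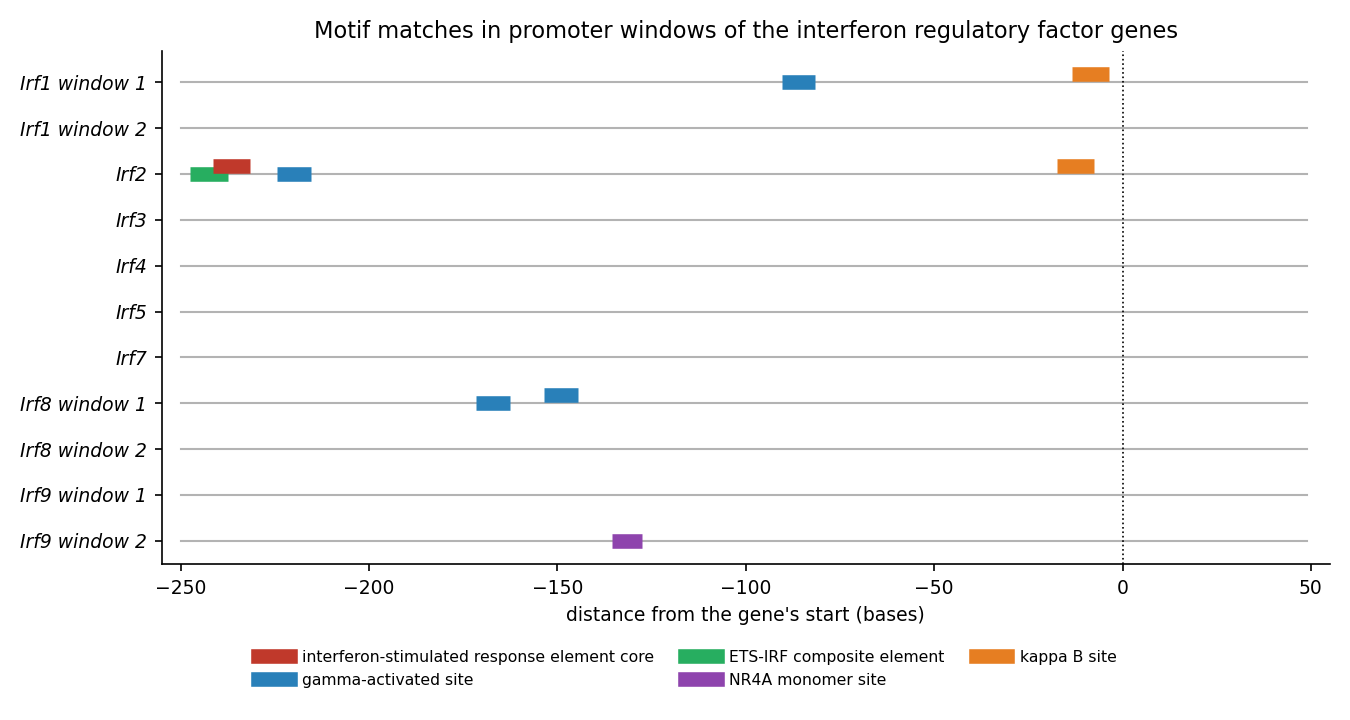
Positions of motif matches (x axis, bases from the gene start) in the promoter windows of the 8 interferon regulatory factor genes, 1 line per window. Irf2 carries 4 matches, Irf1 and Irf8 carry 2 each in the first window, Irf9 carries 1 in the second, and the other windows carry none.

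With LPS, 5 of the 8 genes rose on average over both siRNAs. Irf7 rose by 2.55, Irf8 by 1.27, Irf1 by 1.12, Irf4 by 0.85 and Irf9 by 0.71 on the log2 scale, and Irf2, Irf3 and Irf5 did not pass the test. These values come from an additive fit of siRNA and LPS over the 4 arrays (limma's moderated test, Benjamini-Hochberg over 10592 genes, adjusted p under 0.05), in which 15.6% of genes rose with LPS. Since separate cultures are not stated, these p-values speak only for these 4 arrays. Their error comes from 1 residual degree of freedom, of array noise and any unequal LPS effect, and a prior shared over genes. Counted on pairs of arrays at 1.5-fold or more, 4 members were higher with LPS under NR4A3 siRNA, where 10.3% of genes were higher and 6.88% lower. Under control siRNA 5 members were higher, where 10.2% of genes were higher and 9.44% lower. No member was lower with LPS by that measure under either siRNA. The median member difference was 0.67 with NR4A3 siRNA and 0.89 with control siRNA, beside 0.02 and -0.02 over all genes.

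**Figure D2:**
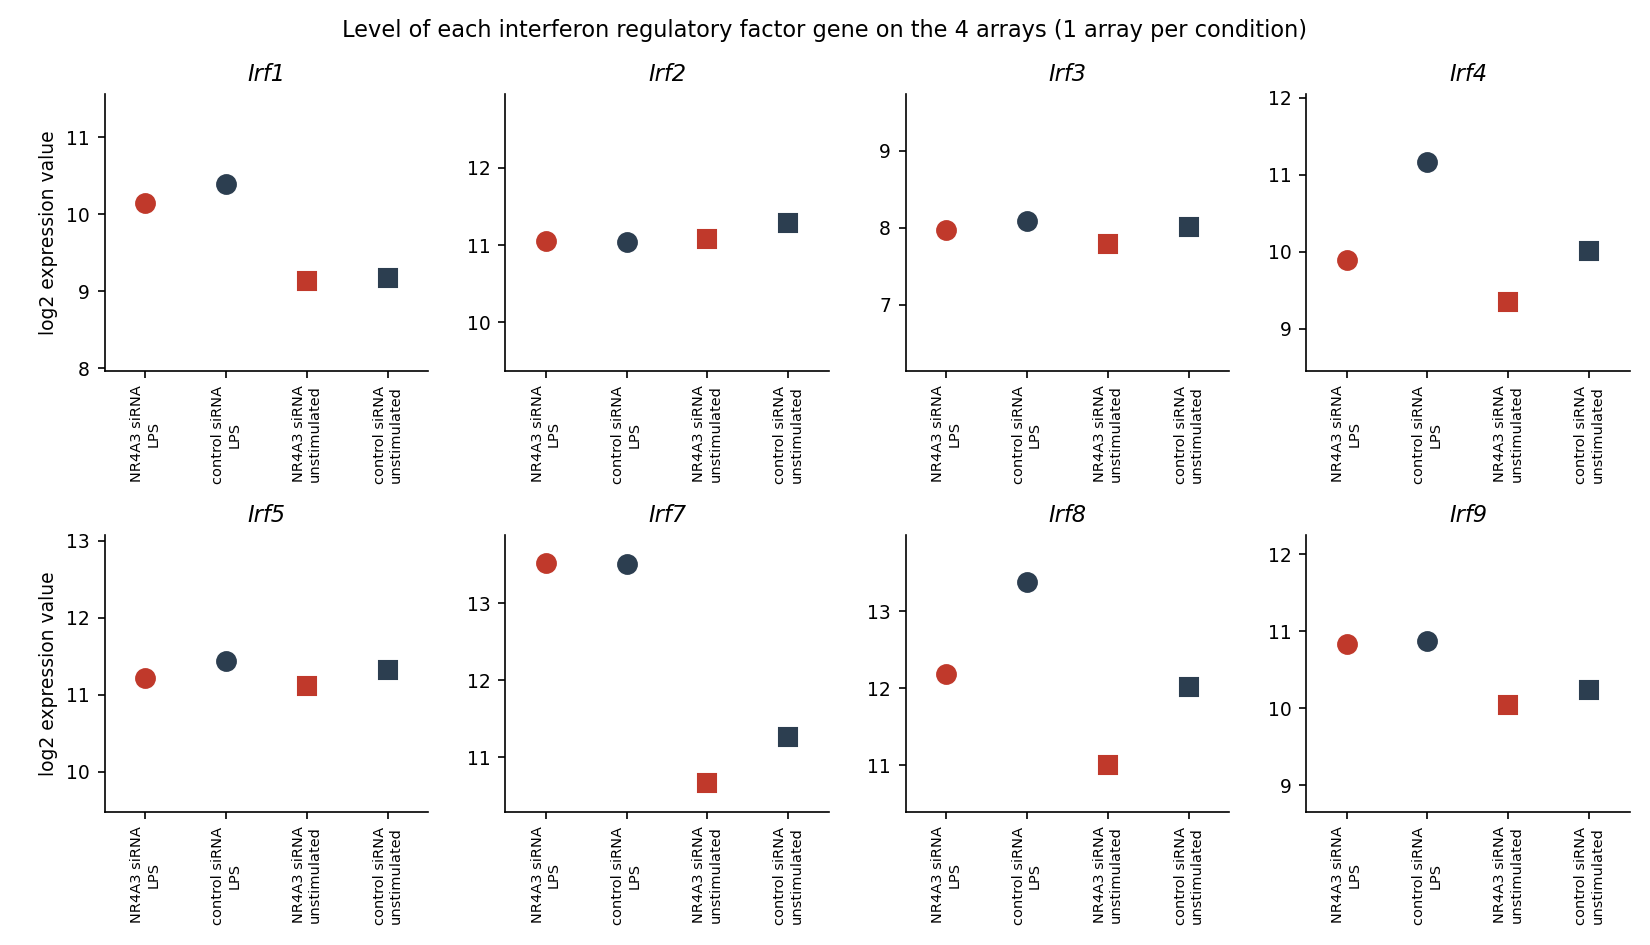
Log2 expression (y axis) of the 8 interferon regulatory factor genes on each of the 4 arrays, 1 array per condition and no error bars. Irf7 is near 13.5 on both LPS arrays, Irf4 and Irf8 are lower with NR4A3 siRNA in each state, and Irf2, Irf3 and Irf5 span at most 0.32.

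The members that switch on type I interferon genes are Irf7 and Irf3. Irf7, the inducible member that amplifies type I interferon production, stood at 13.52 with NR4A3 siRNA and LPS, 13.51 with control siRNA and LPS, 10.67 with NR4A3 siRNA unstimulated and 11.26 with control siRNA unstimulated. Both LPS arrays were nearly equal and far above both unstimulated arrays. The LPS difference was 7.21-fold with NR4A3 siRNA and 4.76-fold with control siRNA. Only 0.696% and 1.25% of genes had a difference as high in these comparisons. In the additive fit Irf7 rose by 2.55 (SE 0.157, adjusted p = 0.000261, higher with LPS in 2 of 2 pairs of arrays).

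Irf3, which is present before stimulation and is activated by TBK1 and IKK-epsilon, stood at 7.97 with NR4A3 siRNA and LPS, 8.09 with control siRNA and LPS, 7.79 with NR4A3 siRNA unstimulated and 8.01 with control siRNA unstimulated. Its LPS difference was 0.17 with NR4A3 siRNA and 0.08 with control siRNA, and the fit gave an adjusted p of 0.378. Of 17 measured genes of the signalling that activates these factors, 9 were higher with LPS under either siRNA and 0 were lower, with medians of 0.80 and 0.62. Shares over all genes were 10.3% higher and 6.88% lower with NR4A3 siRNA, and 10.2% higher and 9.44% lower with control siRNA. Ifih1, a sensor of double-stranded RNA, was higher by 2.35 with NR4A3 siRNA and by 2.37 with control siRNA. Ikbke, which encodes IKK-epsilon, was higher by 1.03 and 0.94 in the same comparisons. Ifnb1, the interferon beta gene, was below the filter on all arrays, between 4.97 and 5.10. The interferon genes Ifna4 and Ifng were below the filter on all arrays as well. Of 8 measured interferon and interferon receptor genes, 5 passed the filter under either siRNA, and of these 0 were higher and 1 was lower with LPS. Ifngr1, a chain of the interferon gamma receptor, differed by -1.31 with NR4A3 siRNA and by -1.36 with control siRNA.

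Irf9, the DNA-binding subunit of ISGF3, stood at 10.84 with NR4A3 siRNA and LPS, 10.87 with control siRNA and LPS, 10.04 with NR4A3 siRNA unstimulated and 10.24 with control siRNA unstimulated. Both LPS arrays lay above both unstimulated arrays, by 1.73-fold with NR4A3 siRNA and 1.54-fold with control siRNA. The rise in the fit was 0.71 (SE 0.102, adjusted p = 0.00482). With the values quantile-normalised again over named genes, the control siRNA difference of Irf9 was 0.52, under the 1.5-fold mark. Stat2, its partner in ISGF3, was higher with LPS by 2.13 with NR4A3 siRNA and by 2.05 with control siRNA.

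All 18 measured genes listed as targets of IRF3 and ISGF3 were higher with LPS by at least 1.5-fold under either siRNA. Of all genes, 10.3% were that much higher with NR4A3 siRNA and 10.2% with control siRNA. The median difference of the 18 was 3.53 with NR4A3 siRNA and 3.30 with control siRNA. Ifit2, an interferon-induced protein with tetratricopeptide repeats, was higher by 4.85 with NR4A3 siRNA and by 4.73 with control siRNA. Rsad2, the antiviral enzyme viperin, was higher by 4.78 with NR4A3 siRNA and by 4.61 with control siRNA. Of the 20 genes listed, measured or not, 15 had promoter windows, 19 in all. The interferon-stimulated core was found in 10 of these 19 windows, or 52.6%, beside 3.44% of all windows. The genes were listed as targets of these factors with earlier results of these data known, so the rise and this share are descriptions only.

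Irf1, an activator of antigen-presentation genes, stood at 10.14 with NR4A3 siRNA and LPS, 10.39 with control siRNA and LPS, 9.14 with NR4A3 siRNA unstimulated and 9.17 with control siRNA unstimulated. The unstimulated arrays were nearly equal, and both LPS arrays lay about a log2 unit above them, by 2.01-fold with NR4A3 siRNA and 2.34-fold with control siRNA. The fit gave a rise of 1.12 (SE 0.106, adjusted p = 0.00114). A second Irf1 probe set lay below the filter on all arrays, between 6.20 and 6.47, and was not used. Of 17 measured genes linked to IRF1, 14 were higher with LPS under either siRNA and 0 were lower, with medians of 1.62 and 1.66. Among all genes, 10.3% were higher and 6.88% lower with NR4A3 siRNA, and 10.2% higher and 9.44% lower with control siRNA. Gbp5, a guanylate-binding protein, was higher by 4.72 with NR4A3 siRNA, against an unstimulated array below the filter, and by 3.92 with control siRNA.

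Irf2, mainly a repressor that competes with IRF1, stood at 11.05 with NR4A3 siRNA and LPS, 11.05 with control siRNA and LPS, 11.08 with NR4A3 siRNA unstimulated and 11.29 with control siRNA unstimulated. Its values spanned 0.24 in all, and its LPS term had an adjusted p of 0.386. Irf5, a factor of inflammatory cytokine genes, stood at 11.21 with NR4A3 siRNA and LPS, 11.44 with control siRNA and LPS, 11.12 with NR4A3 siRNA unstimulated and 11.32 with control siRNA unstimulated. Its LPS difference of 0.09 with NR4A3 siRNA and 0.12 with control siRNA turned to -0.04 and -0.03 with quantile normalization over named genes. Genes linked to IRF5 were mostly higher, 7 of 10 with LPS under NR4A3 siRNA and 9 of 10 under control siRNA, and 0 were lower. Higher genes made up 10.3% and 10.2% of all genes under NR4A3 and control siRNA, and lower ones 6.88% and 9.44%. Of the IRF5 list, Il12b, the p40 chain of IL-12 and IL-23, was higher by 5.97 with NR4A3 siRNA and by 4.50 with control siRNA. Il6 was higher by 4.82 and 5.54 in the same comparisons. Il6 was below the filter on both unstimulated arrays and Il12b on the silenced one, so these sizes rest on dim values.

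Irf8 and Irf4, the members largely restricted to blood cells, were higher with LPS and lower with NR4A3 silencing. Irf8 stood at 12.18 with NR4A3 siRNA and LPS, 13.38 with control siRNA and LPS, 11.01 with NR4A3 siRNA unstimulated and 12.01 with control siRNA unstimulated. The silenced LPS array lay close to the unstimulated control array, with the control LPS array above both and the silenced unstimulated array below. LPS differences were 2.26-fold with NR4A3 siRNA and 2.59-fold with control siRNA, and silencing differences were 2.29-fold lower with LPS and 2.01-fold lower without it. Irf8 rose with LPS by 1.27 (SE 0.104, adjusted p = 0.000639) and fell with NR4A3 siRNA by 1.10 (SE 0.104, adjusted p = 0.0107, lower in 2 of 2 pairs of arrays).

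Irf4 stood at 9.89 with NR4A3 siRNA and LPS, 11.17 with control siRNA and LPS, 9.35 with NR4A3 siRNA unstimulated and 10.01 with control siRNA unstimulated. The control LPS array stood apart as the highest, and the silenced LPS array lay slightly below the unstimulated control array. Silenced cells were 2.42-fold lower with LPS and 1.58-fold lower without it. LPS gave 1.46-fold with NR4A3 siRNA, under the 1.5-fold mark, and 2.23-fold with control siRNA. The fit gave a rise with LPS of 0.85 (SE 0.160, adjusted p = 0.0123). Irf4 fell with NR4A3 siRNA by 0.97 (SE 0.160, adjusted p = 0.0339, lower in 2 of 2 pairs of arrays). This call was lost under 4 of 8 alternatives, among which adjusted p ran from 0.0215 to 0.0848.

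**Figure D3:**
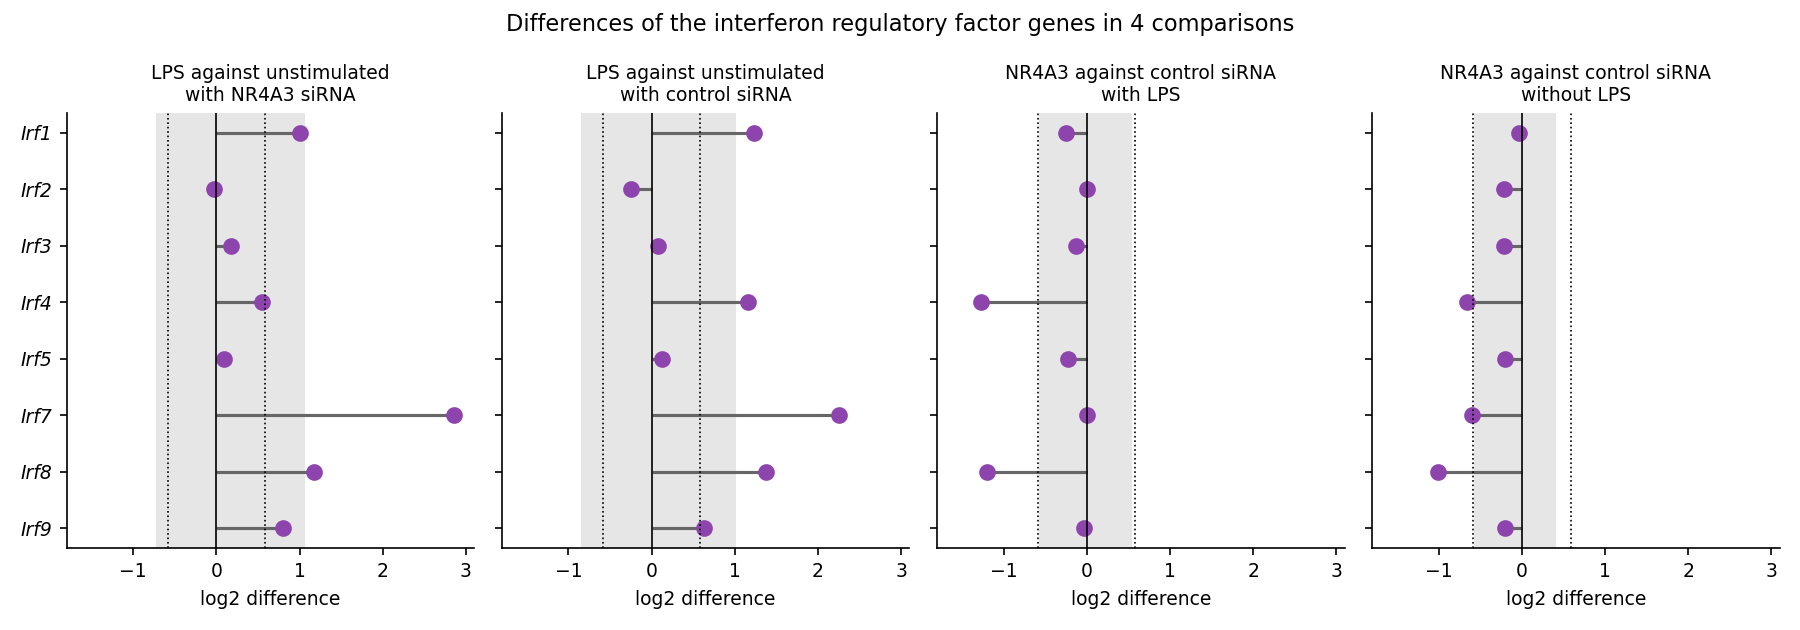
Log2 differences between pairs of arrays (x axis) for the 8 genes, with LPS against unstimulated and NR4A3 against control siRNA as panels, the grey band holding the central range from the 5th to the 95th percentile of all genes and dotted lines at 1.5-fold. Irf7 reaches 2.85 with LPS under NR4A3 siRNA, and Irf4 and Irf8 lie below the band under silencing in both states.

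Over the family, silencing with LPS left 2 genes lower by at least 1.5-fold, Irf4 and Irf8, and 0 higher, where 4.73% of genes were lower and 3.73% higher. Without LPS, 3 were lower, Irf4, Irf7 and Irf8, and 0 were higher, where 4.69% of genes were lower and 1.62% higher. At 2-fold the lower members were 2 with LPS, where 1.67% of genes were lower, and 1 without LPS, Irf8, where 1.72% were lower. For LPS at 2-fold, 3 members were higher with NR4A3 siRNA and 4 with control siRNA, where 5.31% and 5.0% of genes were higher. In the additive fit 3.58% of genes fell with NR4A3 siRNA, and Irf4 and Irf8 were the 2 members that did. Differences as low as those of Irf4 in both states were seen for 59 of 10592 genes (0.557%), and as low as those of Irf8 for 57 (0.538%), each gene itself included.

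Irf7 was lower with NR4A3 siRNA by 1.51-fold without LPS, close to the 1.5-fold mark, and nearly equal with LPS, and its siRNA term had an adjusted p of 0.293. The other 5 members differed by at most 0.25 with silencing in either state. Adjusted p for their siRNA terms lay at 0.442 for Irf1, 0.573 for Irf2, 0.318 for Irf3, 0.228 for Irf5 and 0.517 for Irf9. All 8 members were below 0 without LPS, where 46.2% of genes were, though Irf1 at -0.03 was at 0.00 with the mean of its probe sets. With LPS 6 were below 0, where 41.8% of genes were.

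**Figure D4:**
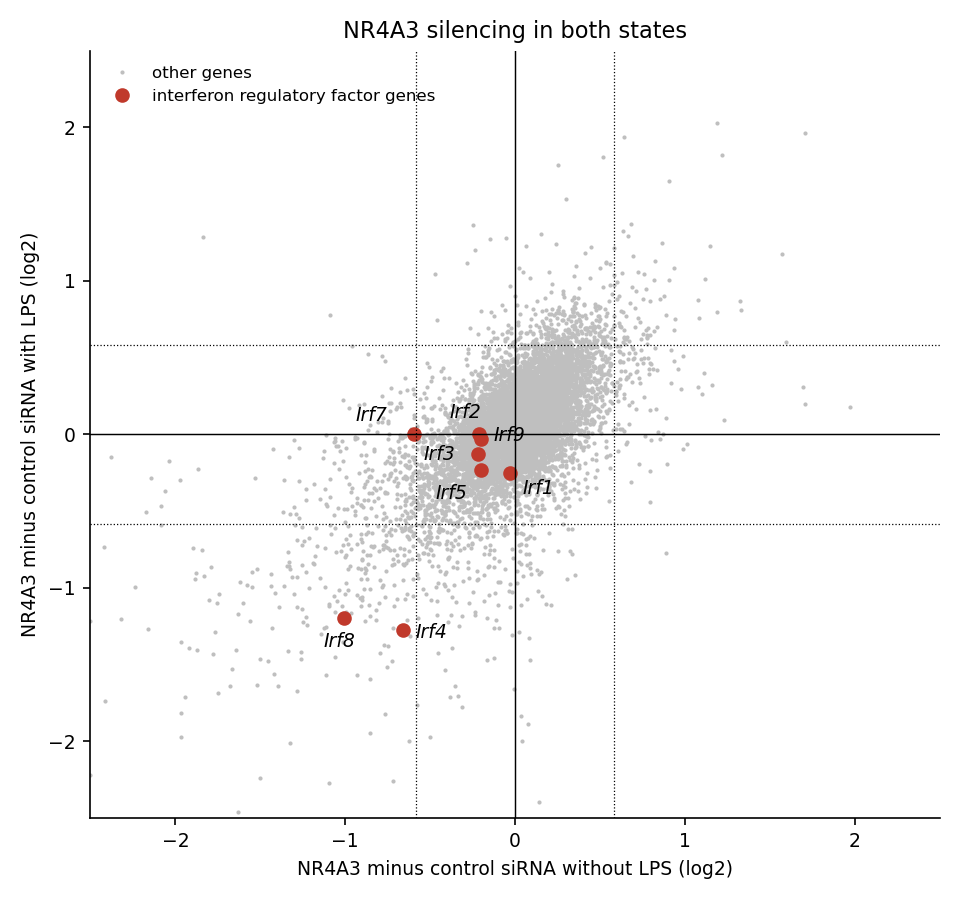
NR4A3 minus control siRNA (log2) without LPS (x axis) and with LPS (y axis) for 10592 genes in grey and the 8 interferon regulatory factor genes in red, with dotted lines at 1.5-fold and 26 genes outside the axes, which end at 2.5 in either direction. Irf4 and Irf8 lie in the lower left corner beyond both lines, Irf7 sits at -0.60 without LPS and 0.00 with LPS, and the other 5 lie near the centre.

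The difference of LPS effects, NR4A3 siRNA minus control siRNA, has no test in this layout. It was 0.60 for Irf7 and -0.61 for Irf4, each just past the 1.5-fold mark, where 2.9% of genes were higher and 2.12% lower. With cyclic loess scaling Irf7 was at 0.58 and no longer past it. Irf8 stood at -0.19, and the other members lay between -0.22 and 0.21.

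Markers of other cells differed with silencing as well. Macrophage markers averaged 9.92 with NR4A3 siRNA and 9.22 with control siRNA under LPS, and 10.46 with NR4A3 siRNA and 9.97 with control siRNA unstimulated. Of 10 measured, 9 passed the filter in each state. By at least 1.5-fold, 5 were higher with LPS and 3 without, and 0 were lower, with medians of 0.57 and 0.26. The complement genes C1qa, C1qb and C1qc were the 3 that were higher in both states, C1qb by 2.03 with LPS and by 1.19 without it. Of 5 measured monocyte markers, 4 passed the filter in each state. With LPS 0 were higher and 2 were lower, Plac8 at -1.26 and Vcan at -0.87. Without LPS 0 were higher or lower, and the medians were -0.27 with LPS and -0.12 without. Of 12 dendritic cell markers, 11 passed the filter in each state, 0 were higher, and 3 were lower with LPS and 4 without. The medians of this list were -0.09 with LPS and -0.15 without. Ccr7, a homing receptor of mature dendritic cells, was lower by 0.74 with LPS and by 3.53 without it. Itgax and Cd74 differed by 0.20 and -0.04 with LPS, and by 0.04 and 0.02 without. Over all genes, silencing left 4.73% lower and 3.73% higher with LPS, and 4.69% lower and 1.62% higher without it. In bulk RNA, fewer cells of a type and less RNA per cell cannot be told apart, and the part of cell composition in the lower Irf4 and Irf8 was not tested.

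The list of partners of IRF4 and IRF8 also holds other transcription regulators, such as Klf4, Id2 and Zbtb46. Genes of this list did not share 1 direction with silencing. Of 20 measured, 17 passed the filter with LPS, 2 being higher and 2 lower. Without LPS 18 passed, 0 being higher and 1 lower. Over all genes, 4.73% were lower and 3.73% higher with LPS, and 4.69% lower and 1.62% higher without it. Spi1, which encodes PU.1, stood at 12.49 with NR4A3 siRNA and 12.28 with control siRNA under LPS, and at 12.53 and 12.37 unstimulated in the same order. Batf, an AP-1 family partner of IRF4, was higher by 0.75 with LPS and by 0.28 without. Bcl6, a repressor, differed by -0.71 with LPS and by -0.52 without. Spib, an ETS factor related to PU.1, was lower without LPS, at 6.20 with NR4A3 siRNA and 7.56 with control siRNA, and only the second of these arrays was above the filter, as neither LPS array was. With LPS against unstimulated cells, genes of this list higher by at least 1.5-fold numbered 3 with NR4A3 siRNA and 5 with control siRNA, and lower ones 2 and 3. For LPS, the shares over all genes were 10.3% and 10.2% higher, and 6.88% and 9.44% lower, in the same order.

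Genes linked to IRF8 divided likewise. Of 16 measured, 14 passed the filter under LPS, 2 being higher and 2 lower with silencing. Without LPS 12 passed, 0 being higher and 2 lower, beside the same silencing shares over all genes. Il12b differed by -1.31 with LPS and by -2.79 without, where the silenced array was below the filter. Clec9a and Naaa, marks of conventional type 1 dendritic cells, were each higher by 0.78 with LPS, and Btla, a receptor also found on those cells, was the other lower member at -0.76, with its silenced array below the filter. Other genes of those cells that did not reach 1.5-fold with LPS lay on both sides of 0, with Cadm1 at 0.57, Cd24a at 0.41, Batf3 at -0.42 and Tlr3 at -0.40. Xcr1 was below the filter on all arrays. With LPS against unstimulated cells, the list had 3 higher and 4 lower members with NR4A3 siRNA, and 4 higher and 4 lower with control siRNA. Shares of all genes were 10.3% higher and 6.88% lower with NR4A3 siRNA, and 10.2% higher and 9.44% lower with control siRNA.

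Of 16 genes linked to IRF4, 12 passed the filter in each state. With silencing, 2 were higher and 2 lower under LPS, and 2 were higher and 3 lower without LPS, beside the same silencing shares. Ccr7 differed by -0.74 with LPS and by -3.53 without, the latter being the largest difference of this list without LPS. Il33, an alarmin cytokine, differed by -1.14 with LPS and by -1.25 without. Ccl22, a chemokine of mature dendritic cells, was lower by 1.02 without LPS. Cd209a and Mgl2, lectins of type 2 and monocyte-derived dendritic cells, were higher without LPS by 1.97 and 0.89, and Cd209a is uncertain where near-identical Cd209 copies share its probes. LPS gave 5 higher and 4 lower members under either siRNA. It left 10.3% of all genes higher and 6.88% lower with NR4A3 siRNA, and 10.2% higher and 9.44% lower with control siRNA. Medians for silencing lay between -0.03 and 0.05 for both lists, beside 0.05 and 0.02 over all genes.

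**Figure D5:**
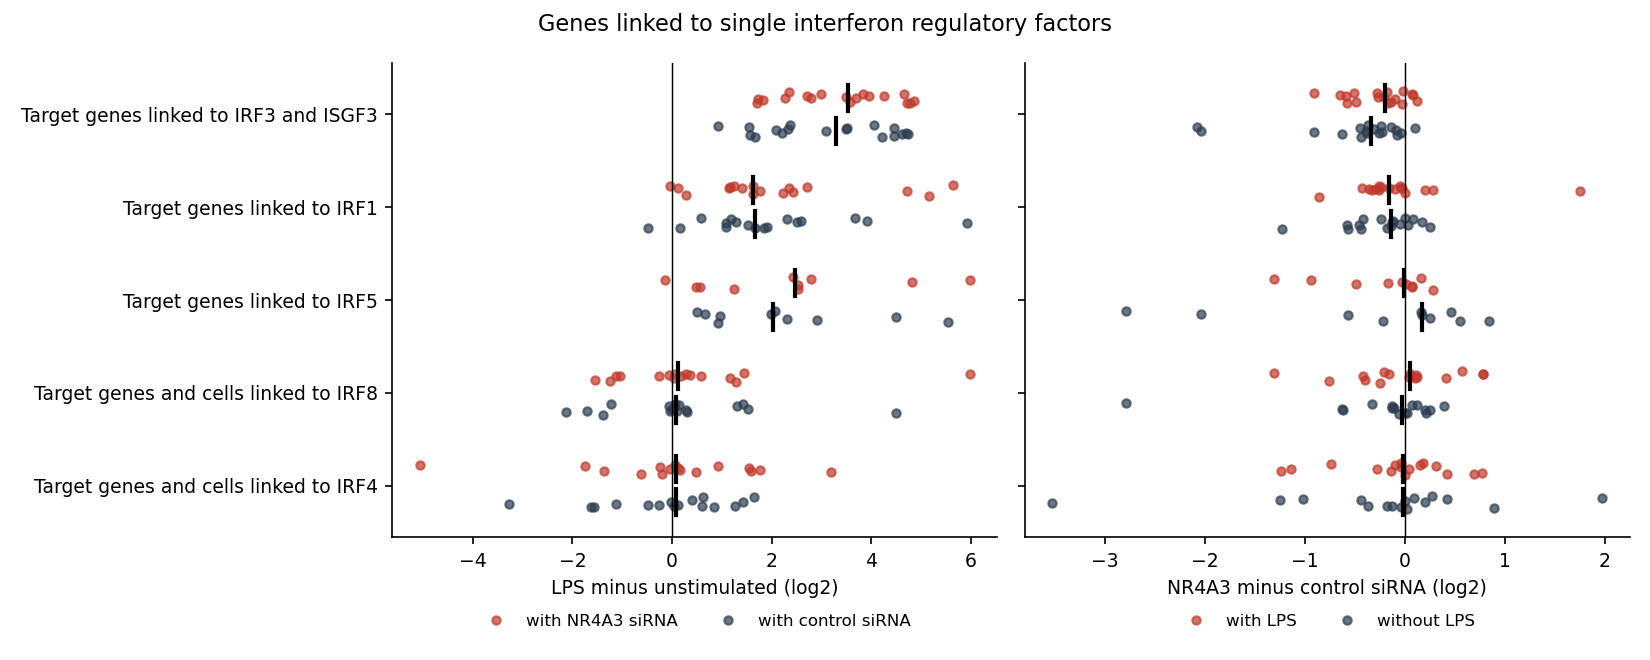
Log2 differences (x axis) of genes linked to single interferon regulatory factors, with LPS against unstimulated on the left and NR4A3 against control siRNA on the right, 1 point per gene and black bars at list medians. Genes linked to IRF3 and ISGF3 all lie to the right of 0 with LPS, and the silencing medians of all 5 lists lie between -0.34 and 0.17.

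Silencing counts for genes linked to the other members stand beside shares of 4.73% lower and 3.73% higher over all genes with LPS, and 4.69% lower and 1.62% higher without it. Of 18 measured genes linked to IRF3 and ISGF3, 0 were higher, 3 were lower with LPS, where all 18 passed the filter, and 4 without, where 16 passed, with medians of -0.20 and -0.34. Mx1, an antiviral GTPase, stood at 10.03 with NR4A3 siRNA and 10.63 with control siRNA under LPS, and at 6.45 with NR4A3 siRNA and 8.54 with control siRNA unstimulated, the silenced unstimulated array being below the filter. The chemokine gene Ccl5 differed by -0.17 with LPS and by -2.04 without. Of 17 genes linked to IRF1, 1 was higher with LPS, the chemokine gene Cxcl9 by 1.75, and 1 was lower, the cytokine gene Il15, at -0.86. Without LPS, 0 of these were higher and 1 was lower, Gbp5 at -1.23, with its silenced array below the filter. Of 10 genes linked to IRF5, 0 were higher and 2 lower with LPS, where 9 passed the filter, and 1 was higher and 2 lower without LPS, where 7 passed. The lists share genes. The 2 lower without LPS were Il12b, also on the IRF8 list, and Ccl5, also on the IRF3 and ISGF3 list.

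Of 5 measured JAK-STAT genes of the interferon receptors, 3 were lower with silencing without LPS, Jak2, Stat3 and Tyk2, and 1 with LPS, Stat3, and 0 were higher. Silencing shares over all genes were 4.69% lower and 1.62% higher without LPS, and 4.73% lower and 3.73% higher with it. Jak2, a kinase of the interferon gamma receptor, stood at 11.62 with NR4A3 siRNA and 11.99 with control siRNA under LPS, and at 9.31 with NR4A3 siRNA and 11.38 with control siRNA unstimulated. Only the silenced unstimulated array was low. Stat3, a signal transducer of cytokine receptors, differed by -0.82 with LPS and by -0.90 without. Tyk2, a kinase of the type I interferon receptor, differed by -0.55 with LPS and by -0.70 without. Of the 17 signalling genes, Traf6, a ubiquitin ligase that IRF5 and IRF7 activation uses, differed by -0.62 with LPS and by -0.73 without, and the DNA sensor Tlr9 was lower by 0.63 without. Of 13 regulators of IRF proteins, 5 were higher with LPS under either siRNA, among them Trim21, Socs1, Socs3 and Usp18. The share of all genes higher with LPS was 10.3% under NR4A3 siRNA and 10.2% under control siRNA. With silencing, 0 of the 13 were higher and 0 lower by 1.5-fold in either state.

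Profiles like those of the 4 members that spanned over 1 log2 unit were found by root mean square distance between log2 profiles, each centred on its mean over the 4 arrays, among 10173 genes. Nearest to Irf8 were Dusp16, a MAP kinase phosphatase, at 0.03, Abtb2 at 0.04 and Cd70, a TNF family ligand, at 0.07. Nearest to Irf4 were Polb, a DNA repair polymerase, at 0.08, Glis3 at 0.09 and the kinase gene Fyn at 0.10. For Irf7 they were the nucleic acid sensor gene Zbp1 at 0.08, Ifi209 at 0.09 and Oas1b at 0.09. Oas1b was below the filter unstimulated, and Ifi209 and Oas1b are uncertain where similar copies share probes. For Irf1 they were Cd274, which encodes PD-L1, at 0.05, Etnk1 at 0.05 and Tor3a at 0.06. Within the family, Irf4 and Irf8 were each other's nearest member, at 0.245. Irf1 lay closer than that to its own nearest member, Irf9, at 0.225. Cd70 was below the filter on both unstimulated arrays and Glis3 on the silenced one, so their distances rest partly on dim values. With 4 arrays such likeness is a description.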

How the data were processed

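Total RNA was hybridised to Affymetrix Mouse Gene 1.0 ST arrays. The deposited values are log2 expression made by the authors with RMA and quantile normalization, per the labels, and Affymetrix Expression Console 1.1 is named in the submitters' processing notes. Any filter applied before deposit is not given in the sources used here, nor is a build. Of 28856 probe sets, 21789 carried 1 symbol in the platform annotation, 1621 several and 5446 none, and the last 2 kinds were not used. For 999 genes with several probe sets, the brightest was taken. Quantile normalization would hide a shift shared by most genes.

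Differences between pairs of arrays were counted at 1.5-fold where the brighter array reached 6.66. The additive fit (limma 3.58.1 in R 4.3.3, 3 coefficients, 1 residual degree of freedom, prior 4.76) was adjusted over 10592 genes. Its residual is made of array noise and any unequal LPS effect. Code was tested on simulated data. Alternatives were other scalings, a 2-fold mark, other filters, the mean of probe sets, dim values set to the filter, and a trended or robust prior.

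Members and gene lists were chosen with earlier results of these data known. Named genes were the members, Nr4a3, up to 4 genes with the largest difference per list and comparison, the 3 nearest profiles, and markers of the labelled cells; other genes (Spi1, Ifnb1, Cd24a, Batf3, Xcr1 and those that complete a count or a marker group) were chosen after their values were seen. Promoter windows came from RefSeq, GRCm38.p6, and protein identity was not analysed here.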

Additional observations from a re-analysis of the deposited data

How the results depend on the processing

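Of 56 counts of interferon regulatory factor genes under alternatives, 49 stayed within 1.5 times the reported count. The count for the difference of LPS effects, 2 as reported, was 1 with cyclic loess and 0 at 2-fold, and the count for silencing without LPS, 3 as reported, was 1 at 2-fold, where the stricter mark itself lowers it. The count that fell with NR4A3 siRNA in the additive fit, 2 as reported, was 1 with quantile normalization over named genes, cyclic loess, no filter or a robust prior. Irf4 was then lost, with adjusted p of 0.0521, 0.0673, 0.0848 and 0.0524 in that order, and the cause was not tested. Irf8 kept its call under all 8 alternatives (adjusted p 0.00428 to 0.0372). No called value turned its sign.

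Over all genes, calls for NR4A3 siRNA in the fit numbered 589, 210 of them higher, beside 370 with quantile normalization, 267 with cyclic loess (50 higher) and 156 with no filter (24 higher). They numbered 753 with arrays centred on their median, 732 with a mean-variance trend and 789 with the mean of probe sets, and 504 and 524 with the stricter filter and a robust prior. For LPS they numbered 3177, beside 2974 to 3323 under the other scalings and priors and the mean of probe sets. At 2-fold the counts of genes were 831 and 913 for LPS with NR4A3 and control siRNA, beside 1782 and 2035 at 1.5-fold. Silencing gave 219 with LPS and 197 without at 2-fold, beside 864 and 647 at 1.5-fold, and the difference of LPS effects gave 128 beside 532. With the filter at 8.67, which tests fewer genes, 1356 genes were counted for LPS with control siRNA, 571 and 366 for silencing with and without LPS, and 319 for the difference of LPS effects.

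No paired analysis was possible because each group has 1 array, so that the groups share a single replicate number and a block for it cannot be told apart from the mean. With 1 array a group, no array was left out. The number of arrays limits every value, and signal near or below the filter, as for Flt3 and Ifnb1, gives no direction.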
